A study of Mus musculus with 11 samples.

Results

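The 5 wild-type mice of a study of 11 imiquimod-treated mice are described here on their own, by the level of each gene in their skin and by how far the 5 mice differed. They were taken as the 5 libraries whose titles give the wild-type genotype, replicates 2 to 6. The other 6 libraries come from mice without Trex2 (Trex2-/-, replicates 7 to 12), and they are used for 1 check only. All 5 mice were female, of the strain C57BL/6 and 8 to 10 weeks old. Their backs were shaved, and from the following day 125 mg of a cream with 5% imiquimod was spread on the skin daily for 4 days. Skin was taken 24 hours after the last application and pulverized whole, so epidermis, dermis, fat and underlying muscle share each library. The series calls the libraries of a genotype biological replicates, and the labels give no litter, batch or sequencing date. Untreated skin was not analysed here, and no level below can be read as a response to the cream.

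Imiquimod activates TLR7, a receptor for single-stranded RNA in endosomes of innate immune cells, and repeated use on mouse skin gives a psoriasis-like inflammation. The epidermis renews itself from basal keratinocytes, which make the keratins Krt5 and Krt14. Cells that move up switch to Krt1 and Krt10 and then build the cornified envelope, the cross-linked protein shell of the skin's outer surface. In injured or inflamed epidermis keratinocytes make the stress keratins Krt6, Krt16 and Krt17, along with S100 proteins, antimicrobial peptides and chemokines that draw neutrophils.

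Values are normalized counts, the authors' read counts divided by a factor for the depth of each library. To compare levels between genes, the mean over the 5 mice was divided by the gene's exon length, which gives a level per kilobase (kb). The libraries held 1208896 to 5853454 counted reads. For single values, 3 reads are taken as the limit of detection, worth 2.72 to 13.5 normalized counts depending on the library. The counts of genes that follow do not use this limit. Replicate 3 was the shallowest. Of 38406 genes in the table, 19868 had a read in at least 1 of the 5 mice and 13239 (34.5%) had a mean of at least 10 normalized counts. These 13239 are called measured. Just inside that minimum were Epo and Zfp708 (both 10.0), and just outside it Ovol2 (9.98) and H2-K2 (9.97). The median level of the 13068 measured genes with a usable exon length was 31.7 per kb, with the 10th and the 90th percentile at 5.36 and 232.

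The labelled tissue was checked against its markers. Keratinocyte (Krt14, Krt5), fibroblast (Col1a1, Col3a1), muscle (Acta1) and adipocyte genes (Cfd, Fabp4) were all abundant, as detailed below. The Y-linked genes Ddx3y, Eif2s3y, Kdm5d, Sry, Zfy1 and Zfy2 had no read in any of the 5 mice, while Xist, the RNA that silences 1 X chromosome in females, had 689.6, 483, 682, 462 and 366 normalized counts in replicates 2 to 6. All lists of values below follow that order of replicates. Trex2, the gene that the series targets, encodes a DNA exonuclease of keratinocytes. It stood at rank 226 of all genes per kb with 1455 ± 439 (SD, n = 5), and the highest of the 6 knockout libraries had 3.47 normalized counts against a lowest wild-type value of 1125.

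The most abundant nuclear transcripts per kb were those of S100a9 and S100a8, whose proteins pair to form calprotectin, an antimicrobial complex of neutrophils and of inflamed keratinocytes. S100a9 had 42581, 38930.3, 18072, 30906 and 46241 normalized counts, and its level was 67713 ± 21461 per kb (SD, n = 5), the highest of all genes. S100a8 had 35046, 35447, 17460.2, 26885 and 40879 normalized counts and ranked next with 44875 ± 13165 per kb. Replicate 4 was the lowest for both genes and replicate 6 the highest. The ratio of the pair per kb moved little, from 1.38 to 1.62 in the 5 mice. Both genes lie on chromosome 3 of GRCm38, S100a9 from 90692632 to 90695721 and S100a8 from 90668978 to 90670035.

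The promoters of the pair are shown because they head the ranking, as RefSeq gives them on GRCm38.p6, from 250 bases before to 50 bases after the annotated start. Capitals mark matches, on either strand, to 4 motifs: the TATA box (TATAAA), AP-1 (TGANTCA), AP-2 (GCCNNNGGC) and C/EBP (TTNNGCAA, or TTGCNNAA on the other strand). The S100a9 window is chr3:90695672-90695971 on the minus strand and the S100a8 window is chr3:90668821-90669120 on the plus strand.
S100a9: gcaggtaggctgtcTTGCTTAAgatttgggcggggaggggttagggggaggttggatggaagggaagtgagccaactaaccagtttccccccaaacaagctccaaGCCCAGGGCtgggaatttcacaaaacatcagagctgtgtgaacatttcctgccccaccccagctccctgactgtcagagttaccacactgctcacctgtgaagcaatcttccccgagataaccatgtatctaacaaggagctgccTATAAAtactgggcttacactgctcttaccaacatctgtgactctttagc
S100a8: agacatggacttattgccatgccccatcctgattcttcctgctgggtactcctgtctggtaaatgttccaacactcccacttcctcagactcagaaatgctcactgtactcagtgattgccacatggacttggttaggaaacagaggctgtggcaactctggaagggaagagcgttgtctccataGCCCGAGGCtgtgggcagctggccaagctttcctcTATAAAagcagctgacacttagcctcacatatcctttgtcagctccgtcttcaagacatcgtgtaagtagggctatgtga
Both windows hold a TATA box and an AP-2 match, and S100a9 also holds a C/EBP match. The TATA box of S100a8 begins 30 bases before its annotated start, and that of S100a9 lies at the annotated start itself. Among the 100 highest genes per kb, 75 had an entry in the promoter table and 19 of these (25.3%) held a TATA box. A gene was counted if any of its windows held a match. The share was 9.48% of the 9729 measured genes with an entry and 15.7% of all 27025 genes of the table. AP-1 matches were held by 14.7% of the highest genes, 7.18% of measured genes and 8.97% of all genes of the table. For AP-2 the shares were 24%, 29.1% and 18.5%. For C/EBP they were 16%, 10.6% and 12.2%. A match describes the letters only.

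Signal was spread over many genes. The 10 highest genes by normalized count held 6.95% of the summed mean signal, the 100 highest 24.8% and the 1000 highest 56.4%, and 680 genes together made up 50%. In single libraries the share of the 100 highest genes ranged from 22.7% in replicate 4 (95% exact binomial interval 22.69 to 22.77) to 27.6% in replicate 2 (27.58 to 27.68), intervals that cover counting error only. Fth1, the heavy chain of the iron store ferritin, had the highest named count, 47194 ± 12165 (SD, n = 5). It was followed by Saa3 with 46091 ± 12952, Krt14 with 41338 ± 18163, the elongation factor Eef1a1 with 40451 ± 4176 and S100a9 with 35346 ± 11203. A clone-named transcript between Saa3 and Krt14 is left out because it has no length here.

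Transcripts encoded by mitochondria took 8 of the 20 highest places per kb. mt-Co2, a subunit of cytochrome c oxidase, had 58206, 29174, 20665, 25829.5 and 17975 normalized counts, with replicate 2 well above the rest, and 44400.5 ± 23627 per kb. mt-Atp6, a subunit of ATP synthase, followed with 37041 ± 8939 per kb. Mitochondrial transcripts made up 2.87% to 5.55% of the signal of a library, most in replicate 2 and least in replicate 6. Other genes among the 20 highest per kb were Mt2, a metal-binding metallothionein (25547 ± 6042), Retnlg, a resistin-like protein of neutrophils (20382 ± 8516), Sprr1a and Sprr1b of the cornified envelope, Saa3, Eef1a1, the skeletal actin Acta1 (16172 ± 3345), haptoglobin (Hp) and Fth1.

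**Figure D1:**
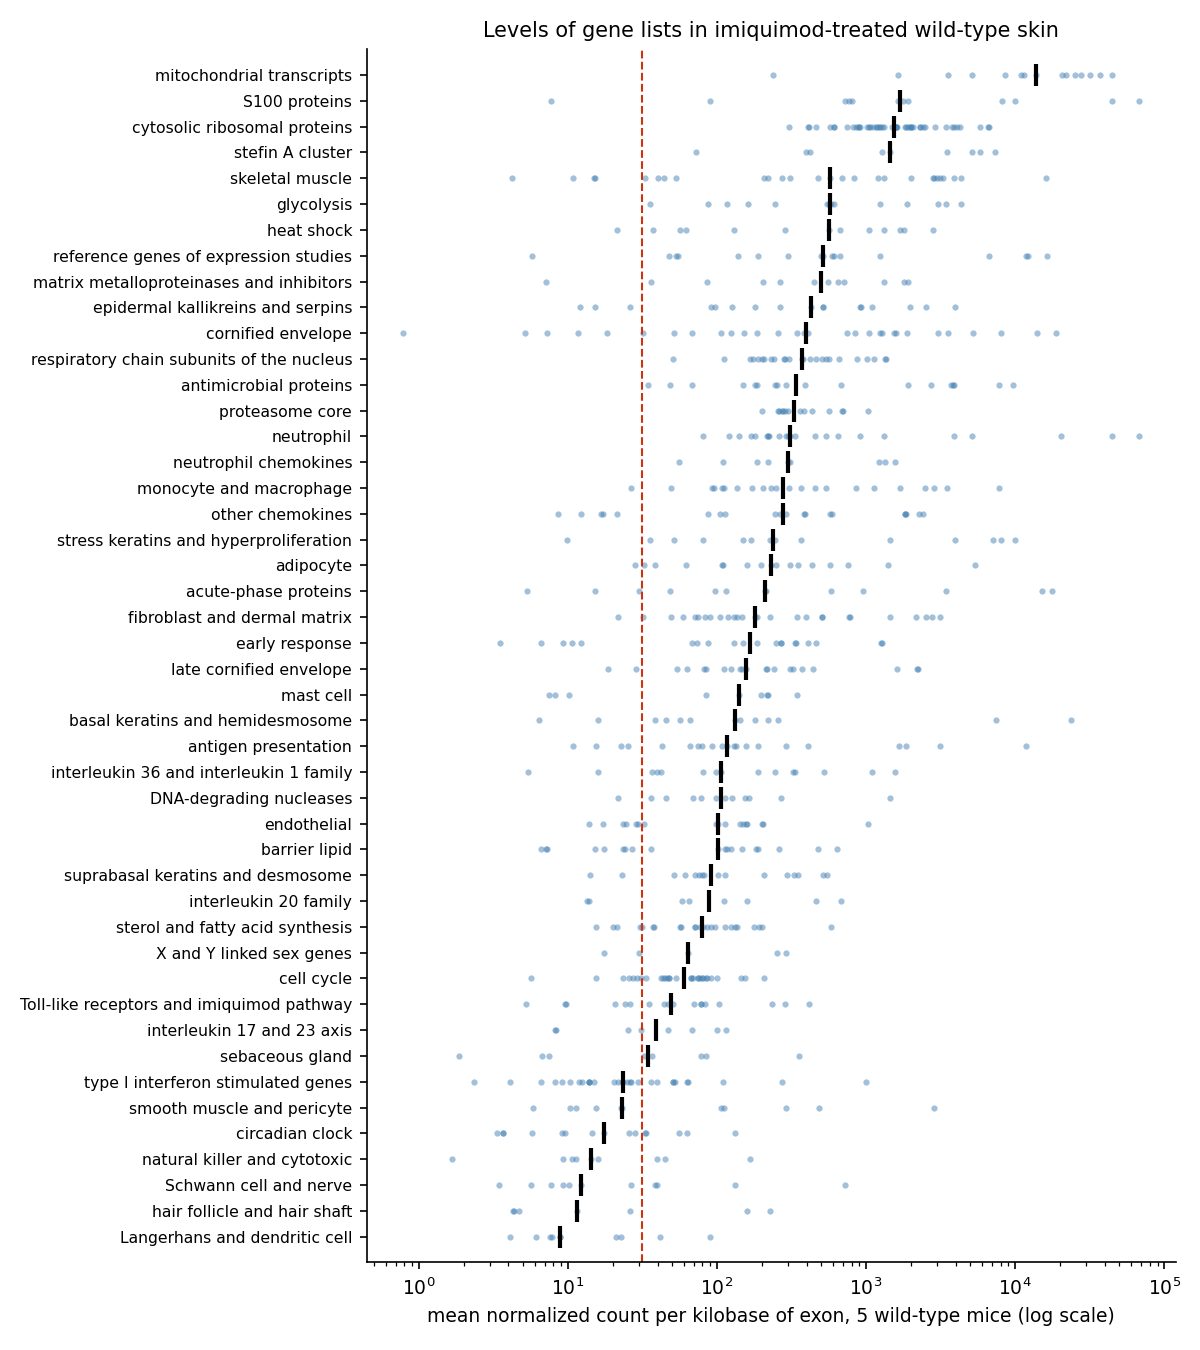
Each point is the mean level of 1 measured gene over the 5 wild-type mice, in normalized counts per kb of exon on a log axis, in rows for the gene lists with at least 5 measured members. Black ticks are list medians and the dashed line is the median of all measured genes, 31.7. Mitochondrial transcripts, S100 proteins, ribosomal proteins and the stefin A cluster have medians over 1000, while the Langerhans and dendritic cell list has the lowest.

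Among epidermal genes the basal and stress keratins stood far above those of the suprabasal layers. Krt14 had 59480.2, 32798, 62054, 22388 and 29969 normalized counts, highest in replicates 2 and 4, and 23514 ± 10332 per kb, rank 9. Its partner Krt5 had 7448 ± 2953 per kb. Of the stress keratins, Krt16 had 9949.5 ± 4626, Krt6a 8065 ± 3443, Krt6b 7089 ± 4064 and Krt17 3933 ± 2486 per kb, all among the 70 highest genes. Krt6a and Krt6b are near-identical copies, and how reads were split between them is not given in the sources used here. Krt10, the type I keratin of suprabasal cells, had a mean of 330.4 ± 616 per kb, which rests on replicate 4, and Krt2 had reads in replicate 2 alone. Per kb, Krt14 exceeded Krt10 by 24.7-fold in replicate 4 and by 242-fold to 927-fold in the other 4 mice. Col17a1 and Itgb4, hemidesmosome genes that anchor basal cells, lay lower, at 219 ± 129 and 179.6 ± 95.4 per kb.

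Cornified envelope genes covered a very wide range of levels. Of the 33 genes of the list, 30 were measured, against 34.5% of all listed genes, and 17 of them stood among the 1000 highest genes per kb, against 7.65% of measured genes with a length. These 2 shares are the background for the same counts of the lists that follow. Sprr1a, a small proline-rich precursor of the envelope, had 20955, 15731, 14294, 14243 and 10619.5 normalized counts and 18819 ± 4647 per kb. Sprr1b followed with 14063 ± 3269.9 per kb and Cnfn, cornifelin, with 8039 ± 3985. At the other end, filaggrin (Flg), whose breakdown products moisten the outer layer, had 7.25 ± 13.4 per kb, and its relative Flg2 0.791 ± 1.28. The highest late envelope genes per kb were Lce3d (2242 ± 1325), Lce3c (2208 ± 1427) and Lce3b (1614 ± 783). Genes of the Sprr2 and Lce groups resemble each other closely, so their single values are uncertain. Among epidermal proteases Klk6 (3936 ± 1052) and Klk7 (2519.5 ± 943), kallikreins that cut the links between surface cells, were the highest.

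Defence proteins filled many of the upper ranks. Lcn2, which withholds iron from bacteria, had 23116, 33592, 10618, 33202 and 25432 normalized counts and 9604 ± 3574 per kb, rank 30. Lyz2, lysozyme of myeloid cells, had 7772 ± 1851 per kb, Slpi, an inhibitor of neutrophil elastase, 3716 ± 1109, and the beta-defensin Defb14 3831 ± 1332. Defb4 had 252 ± 41.3 and Defb3 185 ± 60.2. Levels over 1000 were also found in the stefin A cluster, inhibitors of cathepsins, led by Stfa2 with 7292 ± 2798 per kb, although these copies too share sequence. Of the 13 acute-phase genes all were measured, and Saa3 and Hp stood at ranks 14 and 17. Saa3 had 45744, 48975, 24376, 53788 and 57569 normalized counts, lowest in replicate 4. Saa1 (115 ± 57.01 per kb) and Saa2 (30.04 ± 12.5) of the same family lay far lower.

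Among interleukin 1 family members Il1b was the highest. Il1b, a secreted interleukin of myeloid cells, had 2552, 2771, 2794, 2145 and 4604 normalized counts, highest in replicate 6, and 1559 ± 497 per kb, rank 213. The decoy receptor Il1r2 had 1098 ± 387 per kb and the receptor antagonist Il1rn 246 ± 47.9. Of the interleukin 36 group, Il1f9 (Il36g) had 335 ± 90.8, Il1f6 (Il36a) 99.1 ± 107, Il1f8 (Il36b) 36.8 ± 32.8 and the antagonist Il1f5 (Il36rn) 42.1 ± 56.9 per kb. Replicate 4 weighed on the last 3 means: without it the mean normalized count went from 87.5 to 46.02 for Il1f6, from 44.8 to 27.6 for Il1f8 and from 189 to 77.05 for Il1f5. Of the interleukin 20 group, Il24 had 465 ± 208 and Il19 65.3 ± 26.5 per kb, and Il20 had no read. Il17c and Il17f had no read either, and Il17a had 2 reads in replicate 4 alone. Il23a reached 23.5 normalized counts in replicate 6 and Il22 1.57, where 3 reads were worth 4.71. The receptor chains Il17ra (67.7 ± 12.7 per kb) and Il17rc (115 ± 38.5) were well measured in all 5 mice. Il17d, another ligand of the family, had 12.7, 9.03, 10.01, 3.63 and 3.14 normalized counts, 7 reads in replicate 2 and 9 in replicate 4. At these depths Il17a, Il17c and Il17f were below detection, which does not show that they were absent.

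Neutrophil-attracting chemokines were led by Cxcl2 and Cxcl5. Cxcl2 had 2827, 3935, 2035, 2840.2 and 4425 normalized counts and 1553 ± 463 per kb, lowest in replicate 4. Cxcl5 had 2669, 2689.5, 1182, 2790.3 and 3052 and 1329 ± 397 per kb, and replicate 4 lay below the other 4 mice, which differed by at most 1.14-fold among themselves. Cxcl1 stood lower, at 109 ± 36.6 per kb, and the ratio of Cxcl5 to Cxcl1 per kb was 10.43 to 13.98. Among other chemokines, Ccl8 (2413 ± 1487 per kb), a ligand of monocyte receptors, and Cxcl13 (2255 ± 1081), which draws B cells, were the highest. Ccl20, a ligand of Ccr6 on interleukin 17 producing cells, had at most 3.63 normalized counts in any mouse.

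All 18 genes of the Toll-like receptor list were measured. The highest was Unc93b1, the chaperone that carries endosomal receptors to their compartment, with 416 ± 117 per kb. Tlr2, a receptor for bacterial lipoproteins, had 285 ± 56.3 per kb and the adaptor Myd88 234 ± 45.1. Tlr7, the imiquimod receptor, had 43.6, 126, 107, 105 and 149 normalized counts and 26.02 ± 9.62 per kb, below the median of all measured genes. Replicate 2 was the lowest for Tlr7 and replicate 6 the highest, a 3.37-fold range. Type I interferon stimulated genes were low as a list, with a median of 23.3 per kb over 30 measured genes against 31.7 over all. Ifi27l2a was the only one of them among the 1000 highest genes per kb, with 1031, 338, 335, 289 and 331 normalized counts, about equal in 4 mice and far higher in replicate 2. The Mx1 and Mx2 genes had means under 10.

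Genes of neutrophils and macrophages were prominent, and those of T cells sparse. Of 25 neutrophil genes 23 were measured (34.5% over all genes), 13 of them among the 1000 highest per kb (7.65% over all measured genes). Behind S100a9, S100a8 and Retnlg came Stfa2l1 (5104 ± 1884 per kb), Ngp, a granule protein (3874 ± 1958), and Mmp8, the neutrophil collagenase (1313 ± 524). Mpo and Elane, granule genes that neutrophil precursors transcribe in the marrow, had at most 10.98 and 3.63 normalized counts. All 22 macrophage genes were measured, led by Lyz2, C1qb (3506 ± 691 per kb), C1qa (2861 ± 531) and Cd14 (2487 ± 745). Mast cell proteases were present (Mcpt4 344 ± 128, Cma1 216 ± 45.8 per kb). Of 19 T cell genes only Trbc2, Lck and Cd4 were measured. Cd3e had 18.1, 4.51, 2.22, 9.08 and 1.57 normalized counts, and Foxp3 at most 1.82. In bulk skin, fewer cells of a type and less RNA per cell cannot be told apart.

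Of 16 natural killer genes 9 were measured, against 34.5% over all genes. Their median level was 14.3 per kb against 31.7, and Gzma was the highest at 167 ± 61.9 per kb. Of 15 Langerhans and dendritic cell genes 10 were measured. Cd207, langerin, had 10.9, 4.51, 33.4, 7.26 and 1.57 normalized counts, with only replicate 4 and, by less, replicate 2 above 10. Clec9a had no read. The B cell genes Cd79a, Ms4a1, Pax5 and Blk had means under 5, while the antibody genes Igkc (764 ± 205 per kb) and Ighm (305 ± 93.8) were well measured. Hair follicle and shaft genes were mostly under the minimum, with 7 of 25 measured and Krt31, Krt33b, Krtap3-1 and Krtap4-7 without a read. Of 8 pigment cell genes 4 were measured, with Mitf at 14.98 ± 1.77 per kb.

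Dermis, muscle and fat were well represented. Dcn, decorin, a small proteoglycan of collagen fibres, had 16069.6, 18519.8, 15027, 21876 and 20206 normalized counts and 3141 ± 486 per kb. Col3a1 had 2175 ± 478 and Col1a1 1452 ± 245 per kb, and all 27 fibroblast and matrix genes were measured. Of 30 skeletal muscle genes 27 were measured and 16 stood among the 1000 highest per kb, against 34.5% and 7.65% over all genes. Acta1 had 31874, 20537, 20213, 23108 and 28468 normalized counts and rank 16, and the fast troponin Tnnt3 had 4342 ± 1429 per kb. The slow-fibre genes Myh7 and Myl2 had no read. Cfd, adipsin of fat cells, had 8551, 4477, 3486, 4106 and 4260.0 normalized counts, highest in replicate 2, and 5397 ± 2204 per kb. Red cell genes were barely present, with Hba-a1 at 54.9 ± 36.3 per kb, and its copy Hba-a2 cannot be separated from it with certainty.

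The second question was how far these 5 mice differed. Spread was measured as the SD of log2(normalized count + 1) and as the ratio of the highest to the lowest mouse, with 1 added to each value. A ratio of at least 4 is called wide. Over the 13239 measured genes the median SD was 0.32, from 0.15 at the 10th to 0.69 at the 90th percentile, and the median ratio was 1.73. Wide spread was found for 836 genes (6.31%), and 209 genes had a ratio of at least 10. In simulated reads with counting error alone, 158 of 13039 unchanged genes were wide. A chi-square test of the reads against equal levels (Poisson, 4 degrees of freedom, Benjamini-Hochberg adjusted p under 0.05) called 8101 genes (61.2%) more variable than counting error. After subtraction of counting error the median coefficient of variation was 16.9%, and it was 0 for 1860 genes. The edgeR estimate of the common biological coefficient of variation was 23.8%.

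Low genes spread more. Between means of 10 and 20 the median SD was 0.66 and the median counting error 37.3%, with 32.2% of genes wide and 27.6% beyond counting error. Between 500 and 1000 it was 0.23, with 1.23% wide and 90.1% beyond counting error. Above 10000, where the median counting error was 1.14%, it was 0.37, and these 53 genes include S100a9, Saa3, Lcn2 and the keratins Krt14, Krt16 and Krt6a. The wide calls depend on depth and on replicates. In reads thinned to the depth of replicate 3 they numbered 1607. Leaving out a mouse can only lower their number, which was 520 without the shallow replicate 3 and 571 without replicate 4. It was 606, 715 and 750 without replicates 2, 5 and 6.

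**Figure D2:**
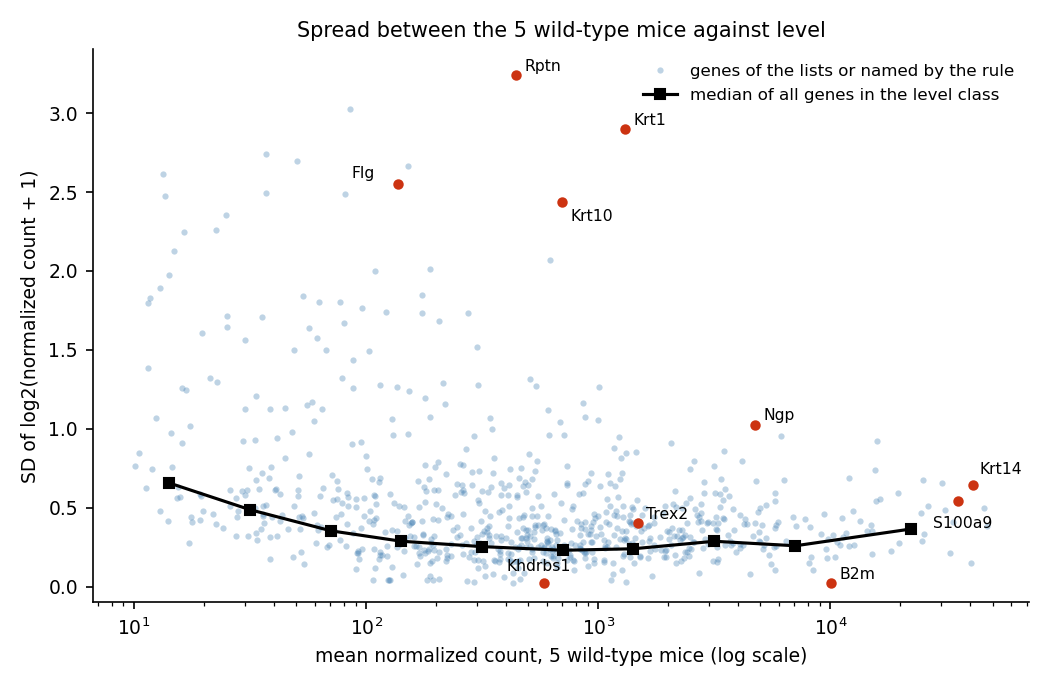
Spread of each listed or named gene between the 5 mice (SD of log2(normalized count + 1)) against its mean normalized count on a log axis, with black squares for the median of all measured genes in 10 classes of level. Rptn, Krt1, Flg and Krt10 lie far above the medians, and B2m and Khdrbs1 near 0.

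The steadiest genes did not pass the test of spread beyond counting error, so their order is not a measure of how steady each gene is. Khdrbs1, an RNA-binding protein, had 569.8, 578, 588, 589 and 590.0 normalized counts, the smallest SD (0.02) among genes with a mean of at least 50. Its values lay closer together than the counting error of such genes, a median of 5.43% between means of 500 and 1000. B2m, beta-2-microglobulin, which pairs with MHC class I chains, had 10193, 10135, 10219.5, 10179.9 and 9824 normalized counts, a range of 1.04-fold at rank 23 per kb. Among the 15 steadiest were also Dvl1, a Wnt signal transducer (0.03), Set, a histone chaperone (0.03), Llgl1, a polarity protein (0.04), and Fntb, a farnesyltransferase subunit (0.04). Irak1, a kinase below Toll-like receptors, ranged from 375 to 414. Of genes often used as references, Hprt had 669.6, 519, 657, 681 and 792, Gapdh 5700.1, 5672, 4091, 4411 and 5769 and Actb 38144, 34648, 28281, 27327 and 35299. The respective ratios of highest to lowest were 1.53, 1.41 and 1.396, against 1.04 for B2m. Of the 51 lists, the median SD was smallest for heat shock (0.19), reference (0.22), proteasome core (0.24) and cell cycle genes (0.24), against 0.32 over all measured genes. Their median means were 838, 1377, 864 and 223 normalized counts. All genes of such levels had similar median SDs, 0.25 between 200 and 500, 0.23 between 500 and 1000 and 0.24 between 1000 and 2000.

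The genes of widest spread included many of epidermal differentiation, and 60 of the widest 100 were highest in replicate 4. Over all 13239 measured genes, 3187 were highest there. Krt1, the type II keratin of suprabasal cells, had 319, 94.8, 5869.7, 24.5 and 229 normalized counts, an SD of 2.90 and a 230.2-fold range. Replicate 4 stood 18.4-fold above the next mouse, and its value alone carried the mean of 1307, which was 167 without it. Krt10 had 176, 113, 3025, 29.05 and 149, in the same order of mice as Krt1. Rptn, repetin of the envelope, had 149, 13.5, 1852, 5.45 and 187, the widest SD of all genes with a mean of at least 50 (3.24). Without replicate 4 the ranges were still 12.6-fold for Krt1 and 29.1-fold for Rptn, with replicate 5 lowest for both.

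The same shape was found in Krt77, a suprabasal keratin, with 38.1, 13.5, 627, 3.63 and 72.2 normalized counts, and in Flg with 56.3, 4.51, 585, 13.6 and 23.5. Lor, loricrin, the bulk protein of the envelope, had 81.7, 31.6, 425, 16.3 and 54.9. Tgm3, a transglutaminase that cross-links it, had 684, 343, 1713, 34.5 and 323. Hrnr, hornerin, had 102, 31.6, 747, 71.7 and 80.02, and Il1f5, the interleukin 36 antagonist, 131, 40.6, 637, 14.5 and 122. In all 6 genes replicate 4 was the highest, and in Krt77, Lor, Tgm3 and Il1f5 replicate 5 was the lowest. Arg1, an enzyme of arginine breakdown, also followed it with 167, 131, 583, 46.3 and 143. Of the 100 genes of widest spread with a mean of at least 50, 49 were lowest in replicate 5. Over all 13239 measured genes, 1780 were lowest there. Of the 836 wide genes, 184 were lowest in replicate 5 and 290 in replicate 3. The 100 genes of widest spread came from 10230 genes. They held 10 of 18 late envelope genes, 6 of 25 cornified envelope genes, 5 of 15 suprabasal keratin and desmosome genes, 5 of 18 antimicrobial genes and 4 of 20 antigen presentation genes. Barrier lipid genes gave 3 of 17 and neutrophil genes 3 of 23.

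Krt10 and Rptn windows are shown as members of this high-in-replicate-4 group, and B2m as a gene that hardly moved, with the same motifs in capitals. Krt10 is chr11:99389315-99389614 on the minus strand, Rptn chr3:93393449-93393748 and B2m chr2:122147437-122147736, both on the plus strand.
Krt10: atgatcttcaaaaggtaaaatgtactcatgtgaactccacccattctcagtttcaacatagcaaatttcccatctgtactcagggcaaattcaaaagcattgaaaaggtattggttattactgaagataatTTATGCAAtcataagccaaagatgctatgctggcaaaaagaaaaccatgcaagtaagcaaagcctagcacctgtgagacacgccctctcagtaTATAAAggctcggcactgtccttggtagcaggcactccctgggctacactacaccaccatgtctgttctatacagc
Rptn: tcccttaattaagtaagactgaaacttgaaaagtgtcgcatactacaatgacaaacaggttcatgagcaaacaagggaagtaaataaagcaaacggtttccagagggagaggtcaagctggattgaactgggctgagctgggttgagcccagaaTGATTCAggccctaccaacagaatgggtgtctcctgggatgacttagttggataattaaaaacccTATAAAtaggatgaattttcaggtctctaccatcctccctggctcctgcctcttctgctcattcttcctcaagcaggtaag
B2m: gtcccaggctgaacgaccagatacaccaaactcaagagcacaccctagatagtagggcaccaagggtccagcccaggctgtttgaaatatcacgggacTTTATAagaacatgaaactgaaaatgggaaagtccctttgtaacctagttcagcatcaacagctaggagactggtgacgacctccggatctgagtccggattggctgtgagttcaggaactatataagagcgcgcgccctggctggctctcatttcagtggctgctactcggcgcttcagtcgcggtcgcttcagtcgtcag
Krt10 and Rptn hold TATAAA on the coding strand, 26 and 31 bases before the start. In B2m the match lies on the other strand, 152 bases before the start. Closer to the start the coding strand of B2m reads TATAAG, which differs from TATAAA in its last letter and was not counted. Of the 100 genes of widest spread 75 had an entry in the promoter table, and 22.7% of these genes held a TATA box. The share was 4.82% of the 83 genes with an entry among the 100 of smallest spread, against 9.48% of measured genes. For AP-1 the shares were 12% and 2.41% against 7.18%, and for AP-2 20% and 37.3% against 29.1%. For C/EBP they were 18.7% and 15.7% against 10.6%, above the background in both sets. Rptn holds an AP-1 match 96 bases before its start, and Krt10 a C/EBP match 119 bases before its start.

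**Figure D3:**
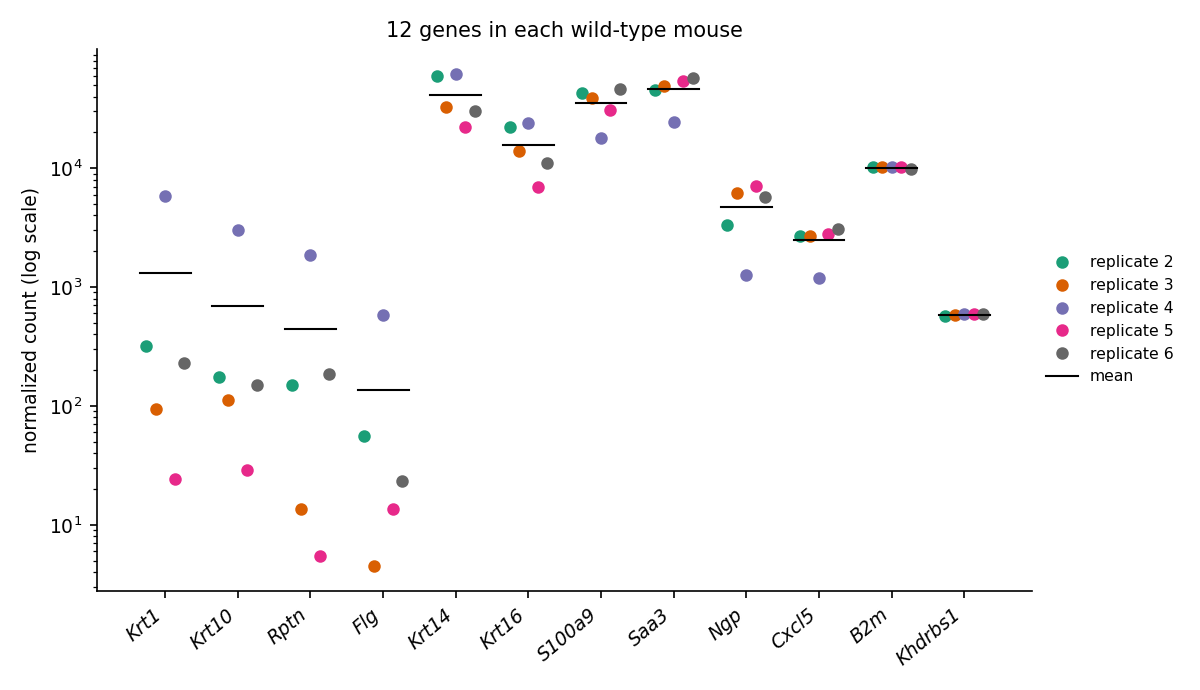
Normalized counts of 12 genes in each wild-type mouse on a log axis, coloured by replicate, with a line at the mean. Replicate 4 is far above the other mice for Krt1, Krt10, Rptn and Flg and the lowest for S100a9, Saa3, Ngp and Cxcl5, while B2m and Khdrbs1 barely differ.

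A list score, the mean log2 deviation of a list's measured genes from their own means over the 5 mice, describes each library. The suprabasal keratin and desmosome score was −0.02, −0.46, 1.90, −1.08 and −0.34 in replicates 2 to 6, and all 16 measured genes were highest in replicate 4. Of these 16 genes 7 were wide, 4 without replicate 4, and the range of the score went from 2.98 to 1.06. Over all measured genes, replicate 4 was the highest for 3187 of 13239. Desmoplakin (Dsp), which ties keratins to desmosomes, had a smaller range than Krt1, with 2919.9, 2757, 6804, 2277 and 2068 normalized counts. The late envelope score was 0.88, −0.63, 1.27, −1.38 and −0.13, with 16 of 21 genes wide against 6.31% of measured genes, and 13 wide without replicate 4. Here replicate 2 came second. The basal keratin and hemidesmosome score (0.49, −0.27, 0.86, −0.67 and −0.41) and the stress keratin score (0.54, −0.20, 0.51, −0.64 and −0.21) were also high in replicates 2 and 4 and lowest in replicate 5, with smaller ranges. Barrier lipid (0.16, −0.32, 0.84, −0.54 and −0.14) and sterol synthesis genes (0.54, −0.44, 0.57, −0.47 and −0.20) were likewise highest in replicates 4 and 2 and lowest in replicate 5. Of 24 sterol genes 15 were lowest in replicate 5, against 1780 of 13239 measured genes. With TMM scaling the sterol score was instead lowest in replicate 3, at −0.47 against −0.46 in replicate 5.

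Neutrophil, acute-phase and neutrophil chemokine genes were lowest in replicate 4. The neutrophil score was −0.03, 0.36, −0.59, −0.08 and 0.35, with 15 of 23 genes lowest in replicate 4. Over all 13239 measured genes, 3065 were lowest there. Ngp had 3343, 6191, 1256, 7122 and 5755 normalized counts and Camp, cathelicidin, 132, 85.7, 25.6, 241 and 198, and replicate 4 lay 2.66-fold and 3.35-fold below the next mouse. The acute-phase score was 0.13, 0.21, −0.73, 0.44 and −0.05 and the neutrophil chemokine score 0.03, 0.36, −0.60, −0.05 and 0.26. Macrophage genes did not share this, with a score of −0.18, 0.08, 0.19, −0.12 and 0.03 and 11 of 22 genes highest in replicate 4. Mrc1, the mannose receptor of resident macrophages, had 1205, 1543, 3133, 2019 and 1842. Within the envelope list, whose score was 0.28, −0.60, 0.97, −0.37 and −0.28, Sprr3 had 14.5, 99.3, 7.78, 168 and 25.1, highest in replicates 5 and 3 and lowest in replicate 4, the reverse of Krt1. How far the amounts of epidermis, dermis and infiltrating cells in each piece of skin bear on these differences was not tested.

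Of the antigen presentation list, the class II genes H2-Aa, H2-Ab1, H2-Eb1 and Cd74 were wide and the other 17 measured genes were not. Over all measured genes 6.31% were wide. H2-Aa, a class II chain of antigen-presenting cells, had 356, 104, 783, 94.4 and 179 normalized counts, H2-Ab1 450.1, 181, 757, 122 and 204, H2-Eb1 232, 76.7, 410.3, 50.8 and 130.2 and the invariant chain Cd74 837, 329, 1561, 269.6 and 419. All 4 had replicate 4 highest, replicate 2 second and replicate 5 lowest, and the second lowest was replicate 3. The class I genes H2-D1 (7264, 8962, 7207, 8321 and 8737) and H2-K1 (6061, 6056, 4539.9, 5741 and 4783) had ranges of 1.24-fold and 1.34-fold. The class I gene H2-Q6 (2.45-fold) and the class II gene H2-DMa (2.14-fold) lay between. Another class II gene of the list came near the cut-off of 4, with a 3.22-fold range even without replicate 4. Beside these values, the 10 measured Langerhans and dendritic cell genes summed to 596 to 771 normalized counts per mouse and that list scored 0.02, −0.51, 0.41, 0.02 and 0.07, with Clec9a at 0. Their part in the class II differences was not tested.

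Some sebaceous and follicle genes were far higher in replicate 4, and others were not. The sebaceous score was −0.36, −0.84, 1.49, 0.01 and −0.30, and 4 of 8 measured genes (Elovl3, Fa2h, Far2 and Soat1) were highest in replicate 4. That library was the highest for 3187 of all 13239 measured genes. Elovl3, a fatty acid elongase of sebaceous glands, had 0, 0, 64.5, 1.82 and 0 normalized counts. Elovl3 reached the minimum mean of 10 only through replicate 4. Its place in the score and among the 4 genes therefore rests on that library and is not separate evidence. Awat1, a wax synthase, had 0, 0, 45.6, 0.908 and 1.57 and Krt79, a keratin of the upper follicle and sebaceous duct, 19.96, 18.1, 461, 28.1 and 17.3. Krt15, a keratin of the follicle bulge and basal cells, had 14.5, 27.1, 236, 31.8 and 28.2. Replicate 4 was 16.4-fold above the next mouse for Krt79 and 7.42-fold for Krt15, and it alone had more than 3 reads of Elovl3 or Awat1. With 3 reads worth 13.5 normalized counts in replicate 3, its zeros for Elovl3 and Awat1 say only that their level there was below about that value. The sebaceous genes Mgst1, Elovl5, Ppard and Cidea had ranges of 1.51-fold, 1.600-fold, 1.83-fold and 2.42-fold. The follicle score was 0.30, −0.17, 0.30, 0.00 and −0.43, and Krt75, a keratin of the follicle's companion layer, was lowest in replicate 4 with 927, 555, 328, 1308 and 562.

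Replicate 2 had its own set of high genes. Thrsp, a regulator of fatty acid synthesis, had 693, 31.6, 71.2, 43.6 and 32.95 normalized counts and fatty acid synthase (Fasn) 2679, 532, 777, 543 and 431. Lpl, the lipoprotein lipase of fat cells, had 6208, 3497, 2057, 3626 and 2951 and Adipoq, adiponectin, 653, 226, 335, 227 and 286, both highest in replicate 2. The adipocyte score was 0.36, −0.01, −0.27, 0.01 and −0.09 and the skeletal muscle score 0.33, −0.10, −0.21, −0.02 and 0.00, with 20 of 27 muscle genes highest in replicate 2. Over all 13239 measured genes, 3283 were highest and 3441 lowest in replicate 2. Replicate 2 was the lowest for fibroblast genes (−0.35, 0.24, 0.00, 0.11 and 0.00) and for the Toll-like receptor list (−0.66, 0.22, 0.37, −0.04 and 0.11), with 12 of 18 genes of that list lowest there. Tlr8 had 27.2, 90.3, 153, 69.9 and 92.6 normalized counts and Tlr4 87.1, 221, 255, 196 and 219.7, both lowest in replicate 2. Red cell genes marked replicate 3, where Hba-a1 had its highest value in 27.2, 94.8, 45.6, 20.9 and 34.5.

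**Figure D4:**
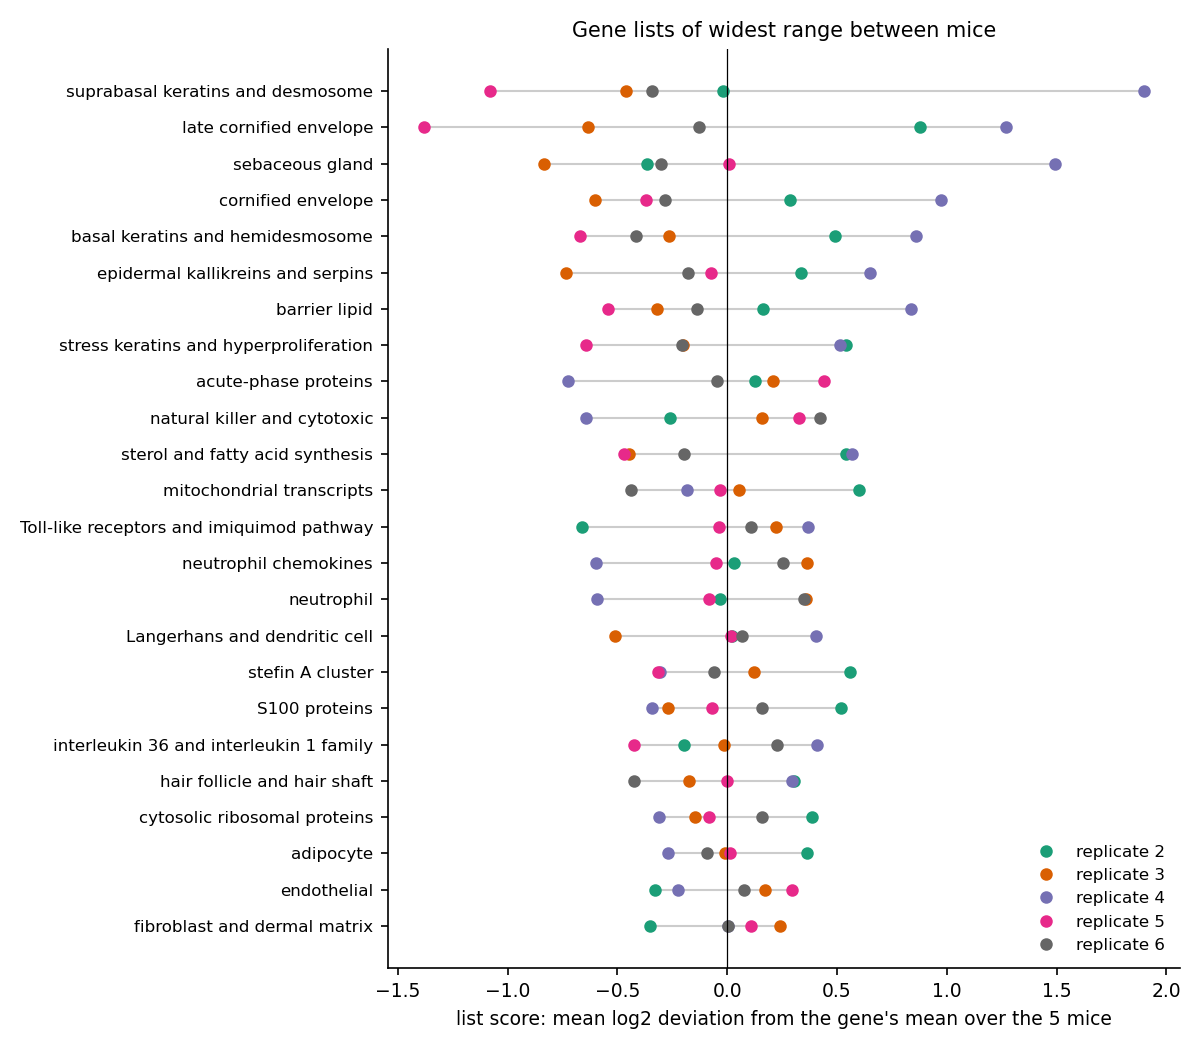
Score of each gene list in each of the 5 mice, in log2 units relative to each gene's mean over the mice, for the 24 lists of widest range. Replicate 4 is at 1.90 for suprabasal keratins and at −0.73 for acute-phase proteins, and replicate 5 is at the low end of the late envelope list at −1.38.

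Transcript length moved with some of these differences, and its part in them was not tested beyond the values that follow. Among genes with a mean of at least 50 and a transcript under 1000 bases, the median log2 deviation was 0.32 in replicate 2, 0.11 in replicate 6 and −0.26 in replicate 4. For transcripts of at least 5000 bases it was −0.15, −0.13 and 0.20. The Spearman correlation of length with deviation across 10173 genes was −0.36, 0.08, 0.42, 0.18 and −0.32 in replicates 2 to 6, a description over genes of shared libraries. Replicate 2 was also the highest and replicate 4 the lowest in the ribosomal protein score, 0.38, −0.15, −0.31, −0.08 and 0.16, and in the S100 score, 0.52, −0.27, −0.34, −0.07 and 0.16. The late envelope list was highest in replicate 4 instead. Genes were also cut into 20 classes of transcript length, and the median deviation of each class was removed from each library. The range of the ribosomal score then went from 0.70 to 0.22 and that of the S100 score from 0.86 to 0.41, with replicate 3 the lowest in both. The suprabasal range was 2.98 before and 2.92 after, the neutrophil range 0.95 and 0.86 and the acute-phase range 1.17 and 1.10.

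**Figure D5:**
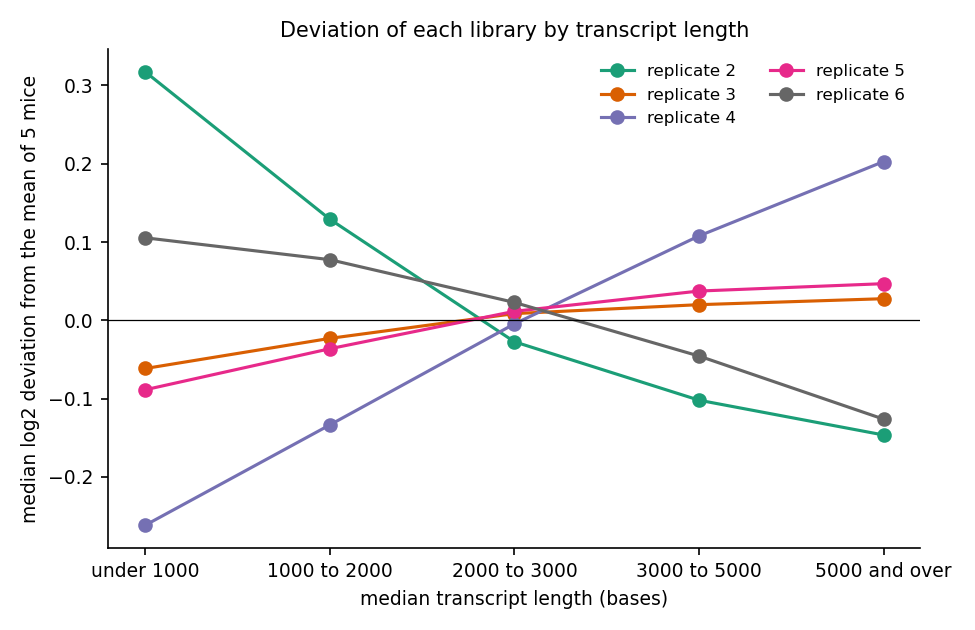
Median log2 deviation of genes from their mean over the 5 mice, for each library in 5 classes of median transcript length, among genes with a mean of at least 50. Replicate 2 goes from 0.32 for the shortest class to −0.15 for the longest and replicate 4 from −0.26 to 0.20.

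The libraries resembled each other closely over all genes, with Spearman correlations of 0.939 to 0.976 between pairs, a description over genes. No 2 libraries agreed within sampling noise (chi-square per degree of freedom of at least 4.74). In a principal component analysis of the 10230 genes whose mean was 50 or more, the first component held 37% of the variance and ran from replicate 3 to replicate 4. The second held 33.3% and ran from replicate 4 to replicate 2. Replicate 2 was farthest from the mean of the 5 mice for 30.6% of genes, replicate 4 for 24.2% and replicate 5 for 10.1%. Cell cycle genes took little part, with a score of −0.04, −0.01, −0.04, −0.05 and 0.13 and a highest SD of 0.41. Pcna, the clamp of DNA replication, had 456, 379, 453, 527 and 651 normalized counts and the mitotic activator Cdc20 199.6, 185, 193, 186 and 177. The early response score also had a narrow range, with 0.07, 0.10, −0.12, 0.04 and −0.09. Its single genes were not closer than others, with a median SD of 0.33 against 0.32 over all measured genes. Of the 20 genes, 12 lay above the median of all genes and 1 was wide, against 6.31% of measured genes. Fos had 768, 559.6, 594, 557 and 665.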

How the data were processed

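RNA from pulverized back skin was sequenced after mRNA selection, per the labels' protocols. The deposited table, titled as normalized counts, holds a signal for 38406 gene symbols in 11 libraries. Its values show whole reads divided by 1 factor per library, and that no further step was applied was read from the values, not from a stated method. Per the submitters' processing notes the tools were TopHat2 2.0.8, featureCounts 1.4.6 and DESeq2 1.8.1, with GRCm38. The sources used here give neither the annotation nor whether counting used strand. Dividing each column by its smallest value above 0 gave whole reads for 100% of values (tolerance 0.01). All per-sample columns were mapped to labels (0 unused).

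Levels per kb used merged exons of GENCODE M21 (GRCm38). Genes with exons under 200 bases were not ranked, a limit chosen after values were seen. Measured genes had a mean of at least 10, spread used a pseudocount of 1, and a highest-to-lowest ratio of at least 4 was called wide. The test of spread was Poisson chi-square with Benjamini-Hochberg adjustment, threshold 0.05. The same reads went through edgeR 4.0.16 in R 4.3.3. Other steps used Python 3.11.15, numpy 2.4.6, pandas 2.3.3, scipy 1.17.1 and matplotlib 3.10.9. On simulated reads for 13239 genes in the 5 wild-type libraries, the test called 96 of 100 genes with 1 library raised 4-fold, 61 of 100 genes with a biological coefficient of variation of 30% and 8 of 13039 unchanged genes.

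The members and the 51 gene lists were chosen with earlier results of these data known. Of their symbols, 6 were not matched and 11 were found under older names. Genes named were Trex2, the 20 highest per kb, the 10 highest by normalized count, of each list the 3 highest per kb and the measured members of largest and smallest SD, and the 20 widest and 15 steadiest genes with a mean of at least 50, without placeholder names. The text leaves some of these out. Genes named outside that rule, chosen after their values were seen, were Adipoq, Awat1, Blk, Ccl20, Cd14, Cd207, Cd3e, Cd4, Cd74, Cd79a, Cidea, Clec9a, Col17a1, Col1a1, Col3a1, Ddx3y, Defb14, Defb3, Eif2s3y, Elane, Fa2h, Far2, Fasn, Flg2, Fos, Foxp3, Gapdh, H2-Ab1, H2-DMa, H2-Eb1, H2-Q6, Hprt, Il17a, Il17c, Il17d, Il17f, Il19, Il1f6, Il1f8, Il1f9, Il1rn, Il20, Il22, Il23a, Itgb4, Kdm5d, Krt17, Krt2, Krt31, Krt33b, Krtap3-1, Krtap4-7, Lpl, Mpo, Mrc1, Ms4a1, Mx1, Mx2, Myh7, Myl2, Pax5, Saa1, Saa2, Slpi, Sry, Tlr4, Tlr7, Tlr8, Zfy1 and Zfy2. Alternatives were other scalings, filters, pseudocounts, thinned reads, lengths and leaving out each mouse. The labels do not separate spread between mice from spread in handling or sequencing.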

Additional observations from a re-analysis of the deposited data

Results flagged for a closer look

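In 26 of 219 sets of 5 values (genes named in the report, list scores and library measures), 1 mouse lay apart by Dixon's criterion, with a gap to its neighbour above 0.71 of the whole range, on the log2(normalized count + 1) scale for genes. Chance alone gives about 1 in 20 sets, and these genes were partly named for their spread. Values are normalized counts of the mouse that lay apart, against those of its nearest neighbour.

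Replicate 2 was apart as the highest mouse for Cfd 8551 against 4477, Cnfn 10818 against 5144, Ifi27l2a 1031 against 338, Krt2 3.63 against 0 and Thrsp 693 against 71.2. Replicate 2 was apart as the lowest mouse for Tlr4 87.1 against 196 and Tlr7 43.6 against 105. Replicate 3 was apart as the lowest mouse for Cma1 149 against 246 and Trbc2 0 against 39.9. Replicate 4 was apart as the highest mouse for Awat1 45.6 against 1.57, Dsp 6804 against 2919.9, Elovl3 64.5 against 1.82, Il17a 2.22 against 0, Krt15 236 against 31.8, Krt79 461 against 28.1 and Unc93b1 1882 against 1219.5. Replicate 4 was apart as the lowest mouse for Cxcl1 92.3 against 194, Cxcl5 1182 against 2669 and Saa3 24376 against 45744. Replicate 6 was apart as the lowest mouse for B2m 9824 against 10135 and Defb3 21.97 against 52.6. The values of Il17a, Krt2 and the lone 0 of Trbc2 in the shallow replicate 3 lie at or under the limit of detection of 3 reads there.

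Among list scores, the mast cell score was lowest in replicate 3 at −0.42 against 0.01, the smooth muscle and pericyte score was highest in replicate 2 at 0.12 against −0.01, the cell cycle score was highest in replicate 6 at 0.13 against −0.01, the heat shock score was lowest in replicate 6 at −0.18 against 0.02, the X and Y linked sex genes score was highest in replicate 4 at 0.36 against −0.01. No library measure (total reads, mitochondrial share, share of the highest genes, genes with at least 10 normalized counts) had a mouse apart.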

How the results depend on the processing

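Counts of wide genes depended most on the processing. Of the 100 highest genes per kb, 64 stayed among the 100 highest by normalized count without division by length and 77 with the median length of basic transcripts, and the share of signal in the 100 highest genes was 22.96% without mitochondrial transcripts against 24.8%. The 836 wide genes became 502 with a pseudocount of 5, 4033 with no filter, 234 with a minimum mean of 50 and 1607 in reads thinned to the shallowest library, where low genes gain counting error. They numbered 520 to 750 when 1 mouse was left out, a step that can only lower the count, lowest without replicate 3. The median SD was 0.43 with no filter and 0.38 in thinned reads against 0.32, and 4284 genes exceeded counting error in thinned reads against 8101. Lists whose score spanned at least 1 on the log2 scale numbered 13 of 46, and 7 to 12 with 1 mouse left out, lowest without replicate 4. That count too can only fall when a mouse is left out. Of 266 named genes with a spread 55 were wide, 34 lost that call in at least 1 setting (17 of them without replicate 4) and 10 genes gained it. The highest or lowest mouse of a list score changed for 7 of 46 lists with TMM scaling, 5 with upper quartile scaling and 13 with the length trend removed, an alternative chosen after the data were seen. Without that trend the highest mouse went from replicate 2 to 6 for respiratory chain, to 5 for proteasome and to 4 for nuclease genes. No paired analysis was possible because no groups were compared and the replicate numbers of the wild-type (2 to 6) and knockout mice (7 to 12) do not overlap. Depth limits what can be said of genes under 3 reads, above all in replicate 3.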

Other observations

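Several gene groups outside skin inflammation were also measured. Pmp22, a myelin protein of Schwann cells, had a level of 725 ± 33.2 per kb. All 11 genes of the Schwann cell and nerve list were measured, with 1 of them wide. The list was low, with a median of 12.2 per kb against 31.7 over all measured genes. Pmp22 was its only member among the 1000 highest genes per kb. All 14 glycolysis genes and all 14 proteasome core genes were measured, with median levels of 571 and 328 per kb. None was wide, where 6.31% over all measured genes gives under 1 in 14. In the classes of their median counts the share was lower, 2.45% between 2000 and 5000 and 1.23% between 500 and 1000. Of 14 DNA-degrading nucleases 12 were measured and the median SD was 0.26, with none wide against 6.31% over all. Between means of 200 and 500, the class of their median count, the median SD was 0.25 and 1.21% of genes were wide.

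All 12 matrix metalloproteinase and inhibitor genes were measured, 7 of them among the 1000 highest per kb (7.65% over all). None was wide, which is near the 6.31% over all and the 1.85% between means of 1000 and 2000, the class of their median count. Of 18 endothelial genes 17 were measured, with a median of 102 per kb and 2 wide genes, and the list was lowest in replicate 2, where the score was −0.33.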
